A study of Mus musculus with 12 samples.

Results

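Annexins and their S100 partner proteins were followed by 10 genes in mouse kidney after ischemic injury. The members are 6 annexins (Anxa1, Anxa2, Anxa3, Anxa4, Anxa5 and Anxa7) and 4 S100 genes (S100a6, S100a10, S100a11 and S100a4), chosen by symbol from the 56748 genes of the deposited expression table. All 10 are in the table, and 9 of them reached the mean of 1 FPKM (a read level per gene length and library size) at which a gene was tested, as did 12868 genes in all. S100a4 did not.

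RNA of whole kidney was sequenced in 12 libraries from male mice of 8 to 12 weeks, 3 libraries in each of 4 groups. WT sham and WT IR are wild type mice. cKO sham and cKO IR are mice with Krt20, a keratin gene, conditionally knocked out in proximal tubular cells of the kidney. IR (ischemia/reperfusion) was a 30 min clamp on each renal pedicle, and kidneys were collected 24 h after its release, whereas sham mice had the operation with no clamp. The labels name neither the Cre line nor its promoter, and they do not say that each library is a separate animal, so a p-value here reflects only how far these libraries spread.

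Annexins are cytosolic proteins that bind acidic phospholipids when calcium rises, which brings them to membranes during trafficking, repair of torn plasma membrane and regulation of the cytoskeleton. S100 proteins are small EF-hand calcium sensors that act mostly as dimers. Each S100 dimer can bridge a pair of annexin molecules: S100A10 (p11) joins annexin A2 in a heterotetramer that binds plasminogen and its activator at the cell surface, S100A11 binds annexins A1 and A2, and S100A6 binds several annexins. In the kidney, annexins and S100 proteins are known from tubular epithelium, and S100A4 and annexin A1 also from fibroblasts and leukocytes.

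The promoter set used here, drawn from RefSeq (build GRCm38.p6), held 8 of the 10 members, all but Anxa3 and S100a10. Shown are the 250 bases before the start of Anxa2 and S100a11, which hold a match to the AP-1 motif TGANTCA, of Anxa1, which holds a match to the TEAD motif CATTCC, and of S100a6, which holds neither. Matches are in capitals, and every promoter is read 5′ to 3′ on the strand of its gene:
Anxa2, chr9:69453433-69453682, plus strand: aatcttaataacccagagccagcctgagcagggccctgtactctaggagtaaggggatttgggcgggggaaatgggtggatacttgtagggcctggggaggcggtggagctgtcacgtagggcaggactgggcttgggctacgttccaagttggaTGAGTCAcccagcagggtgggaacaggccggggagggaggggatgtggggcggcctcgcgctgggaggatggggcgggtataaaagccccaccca
S100a11, chr3:93520246-93520495, plus strand: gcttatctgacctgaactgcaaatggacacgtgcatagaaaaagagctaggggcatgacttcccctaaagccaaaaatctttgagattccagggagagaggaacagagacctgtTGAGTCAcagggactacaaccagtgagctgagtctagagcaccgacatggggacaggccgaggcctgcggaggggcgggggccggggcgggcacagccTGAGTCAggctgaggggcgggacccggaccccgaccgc
S100a6, chr3:90612644-90612893, plus strand: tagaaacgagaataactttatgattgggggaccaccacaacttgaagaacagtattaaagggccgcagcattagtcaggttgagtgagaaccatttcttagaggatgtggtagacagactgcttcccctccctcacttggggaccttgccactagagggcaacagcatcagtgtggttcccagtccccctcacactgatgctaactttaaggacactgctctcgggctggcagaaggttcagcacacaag
Anxa1, chr19:20390672-20390921, minus strand: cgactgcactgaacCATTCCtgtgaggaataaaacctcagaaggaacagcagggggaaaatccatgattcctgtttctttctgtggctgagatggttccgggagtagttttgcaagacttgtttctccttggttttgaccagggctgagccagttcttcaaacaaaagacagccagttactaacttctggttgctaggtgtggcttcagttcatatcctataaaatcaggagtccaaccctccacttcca

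Anxa4 and Anxa7 have 2 promoters each in the table, which makes 10 member promoters. The AP-1 motif, searched on both strands, was in 2 of these 10 against 6.75% of 32851 mouse promoters of the same length. In Anxa2 it lay 95 to 89 bases before the start, and in S100a11 at 136 to 130 and again at 38 to 32 bases before it. The TEAD motif was in 1 of the 10, 236 to 231 bases before the start of Anxa1, against 12.6% of all promoters. The frame of the CArG box of serum response elements (its outer C and G pairs with any bases between them) was in 9 of the 10 and in 67.1% of all promoters. These are matches of letters in 1 window, and binding was not measured.

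Krt20 rose from 0.0650 ± 0.0816 to 69.6 ± 12.7 FPKM with IR in WT, and its cKO means were 0.0114 ± 0.0198 FPKM without injury and 36.9 ± 9.47 FPKM after it (SD, n = 3). This targeted gene was called higher with IR in cKO as well (log2 difference 5.20, limma adjusted p = 4.20e-08), and it was not called lower in cKO than in WT, in sham (−0.07, adjusted p = 0.944) or after IR (−0.91, adjusted p = 0.132). Krt20 reached the 1 FPKM filter, a mean over all 12 libraries, only through the injured libraries. Its selection for testing was thus not independent of its calls with IR. Both sham means were far under 1 FPKM, so the sham comparison could not show a loss. The value of Krt20 sums over the gene model, and the deleted part cannot be read from the table. The libraries held 13187531 to 15962303 reads, and 22681 to 23705 genes had a read. WT IR 2 stood apart among the injured WT libraries: the summed FPKM of 10 injured tubule markers was 6555 there against 11413 and 11247 in WT IR 1 and 3, and that of 10 proximal tubule markers was 16036 against 7968 and 6842. It had the lowest value of the WT IR group for 9 of the 9 tested members, so results on cKO against WT after IR and on the interaction are also given without it. Leaving it out raises the WT IR mean of each tested member by construction, so those results are no independent check. Tissue identity was checked because the labels' extraction text mentions retinas: 9 retina genes summed to 0.145 to 0.596 FPKM per library, while the proximal tubule markers summed to 18162 to 25946 FPKM in sham libraries. In whole kidney, more cells of a type and more RNA per cell cannot be told apart.

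All 4 S100 members lie on chromosome 3, which holds 15 S100 genes in the deposited table. S100a4 and S100a6 sit near each other with S100a5 between them, and S100a11 and S100a10 are neighbours separated by 28792 bases. Coordinates are those of the deposited table, whose build is not known, so they are not to be read with those of the promoters.

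S100a10 (ENSMUSG00000041959, chromosome 3, 93462387 to 93471950, plus strand), the p11 partner of annexin A2, had 30.0, 49.5 and 32.2 FPKM in WT sham and 198, 156 and 191 FPKM in WT IR. In the cKO it had 30.3, 27.1 and 38.3 FPKM in sham and 275, 243 and 223 FPKM after IR. Every injured library was above every sham library, and every cKO IR library was above every WT IR library. IR raised S100a10 in WT (log2 difference 2.29, SE 0.19, limma adjusted p = 2.40e-05) and in cKO (2.92, SE 0.19, adjusted p = 3.29e-06). These differences are of log2(FPKM + 1), which understates the change of genes with low FPKM, and a gene was called where its p adjusted over all tested genes was under 0.05.

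S100a11 (ENSMUSG00000027907, chromosome 3, 93427795 to 93433594, plus strand), which binds annexins A1 and A2, was the most abundant member in each of the 4 groups. In WT its sham libraries had 121, 102 and 99.8 FPKM and its injured libraries 455, 390 and 455 FPKM. In cKO they had 99.5, 95.6 and 141 FPKM without injury and 574, 556 and 584 FPKM with it. Sham and injured libraries did not overlap in either genotype. The log2 difference with IR was 2.0 in WT (SE 0.14, limma adjusted p = 1.27e-05) and 2.36 in cKO (SE 0.14, adjusted p = 2.90e-06). S100a11-ps, a pseudogene of S100a11, was listed at 0 in every library.

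S100a6 (ENSMUSG00000001025, chromosome 3, 90520189 to 90531488, plus strand), calcyclin, had the largest log2 difference among the members in both genotypes. It had 3.20, 3.09 and 2.54 FPKM in WT sham and 34.5, 20.0 and 61.8 FPKM in WT IR. In the cKO the sham libraries had 2.66, 2.26 and 2.51 FPKM, and the injured ones 49.0, 41.9 and 55.5 FPKM. WT IR spread over a 3-fold range, yet its lowest library was well above the highest sham library. The log2 difference was 3.20 in WT (SE 0.30, limma adjusted p = 4.52e-05) and 3.83 in cKO (SE 0.30, adjusted p = 7.90e-06). In ranks of increase it was gene 19 of 12868 in both genotypes.

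S100a4 (ENSMUSG00000001020, chromosome 3, 90511078 to 90513352, plus strand), known from fibroblasts and leukocytes, was close to absent. It had 22 reads in all 12 libraries together, 0 to 5 per library, and 3 libraries had none. The 3 WT IR libraries had 5, 2 and 3 reads and the 3 cKO IR libraries had 1, 3 and 0. A count of 0 allows up to 3 reads, or 0.302 to 0.387 FPKM depending on the library, which covers counting error only. Each group mean was under 0.387 FPKM, so no fold is given and no change was detectable at this depth.

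**Figure D1:**
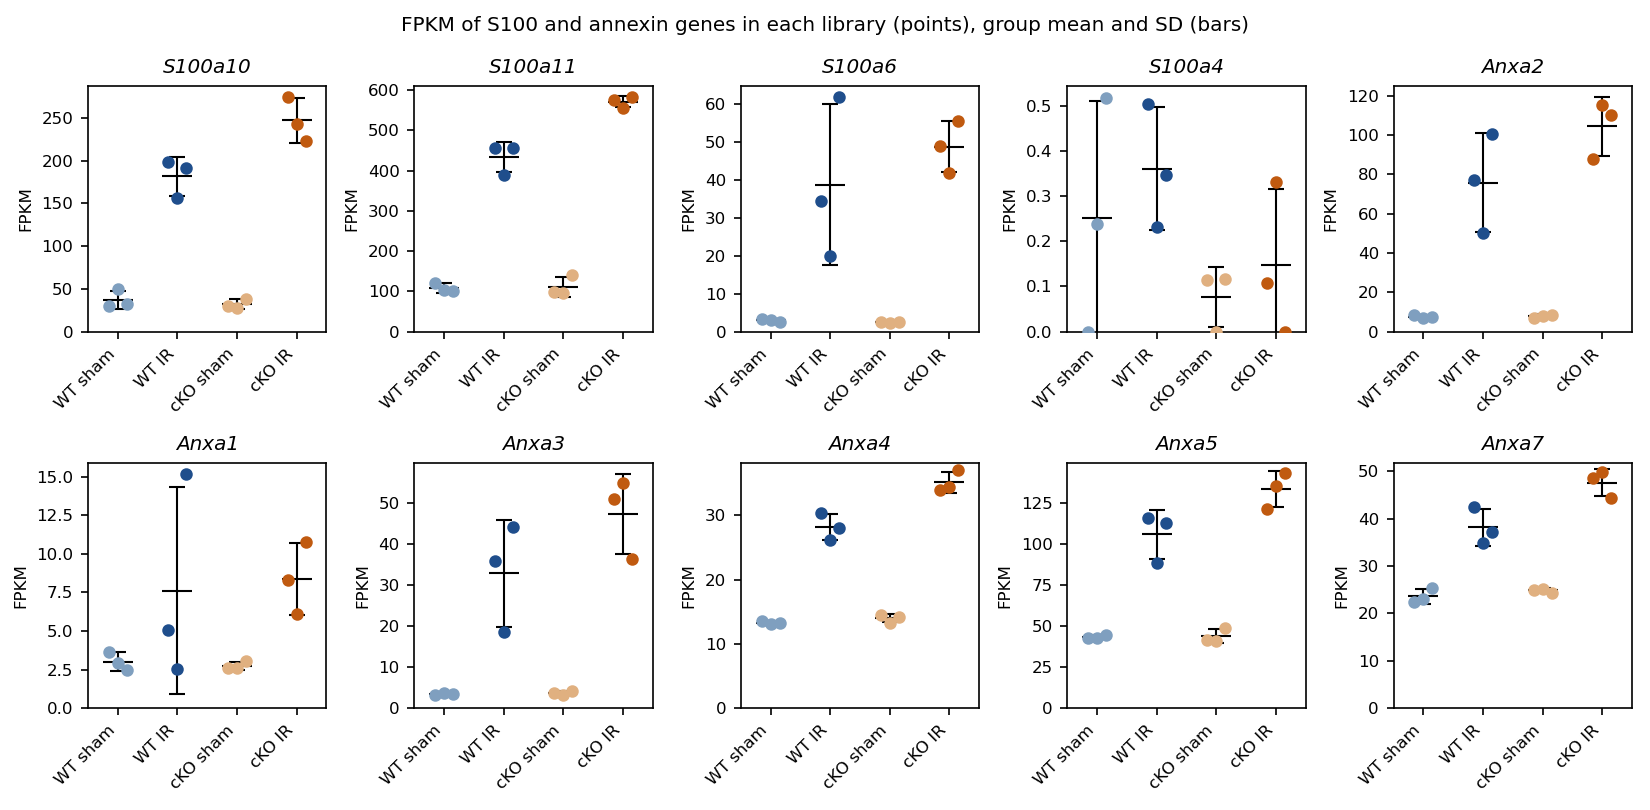
FPKM of each of the 10 genes (linear axis from 0, 1 panel per gene) in the 4 groups. Points are libraries, the wide bar is the group mean and the whiskers are the SD over 3 libraries, cut at 0 for S100a4. The injured libraries lie above the sham libraries of the same genotype for 8 genes, while Anxa1 overlaps in WT and S100a4 stays between 0 and 0.517 FPKM.

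Anxa2 (ENSMUSG00000032231, chromosome 9, 69360902 to 69399077, plus strand), which carries the AP-1 match shown above, encodes the annexin that pairs with S100A10. WT libraries had 8.46, 6.96 and 7.26 FPKM without injury and 76.9, 50.1 and 100 FPKM with it. The cKO libraries had 6.99, 8.06 and 8.62 FPKM in sham and 87.6, 116 and 110 FPKM after IR, so injured and sham libraries were far apart. Mean FPKM was 10.0-fold higher with IR in WT and 13.2-fold higher in cKO. The log2 difference was 3.11 in WT (SE 0.21, limma adjusted p = 8.68e-06) and 3.56 in cKO (SE 0.21, adjusted p = 2.38e-06), ranks 24 and 28 of increase among 12868 genes.

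Anxa3 (ENSMUSG00000029484, chromosome 5, 96941198 to 96993825, plus strand) encodes a phospholipid-binding annexin found in neutrophils and several epithelia. It had 3.25, 3.76 and 3.40 FPKM in WT sham and 35.9, 18.6 and 44.2 FPKM in WT IR. The cKO libraries had 3.75, 3.29 and 4.14 FPKM in sham and 51.1, 55.0 and 36.4 FPKM after IR. Sham and injured libraries were far apart in both genotypes, with log2 differences of 2.84 (SE 0.26, limma adjusted p = 4.20e-05) and 3.34 (SE 0.26, adjusted p = 7.90e-06).

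Anxa5 (ENSMUSG00000027712, chromosome 3, 36503072 to 36530043, minus strand), whose protein binds phosphatidylserine and forms lattices on membranes, was the most abundant annexin member in each group. It had 43.0, 42.7 and 44.8 FPKM in WT sham and 116, 88.7 and 113 FPKM in WT IR. In cKO it had 41.6, 41.2 and 49.0 FPKM in sham and 122, 136 and 143 FPKM after IR. IR raised it in WT (log2 difference 1.26, SE 0.12, limma adjusted p = 4.20e-05) and in cKO (1.58, SE 0.12, adjusted p = 5.36e-06), with no overlap of sham and injured libraries.

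Anxa4 and Anxa7 moved less and with little spread. Anxa4 (ENSMUSG00000029994, chromosome 6, 86713822 to 86770566, minus strand), an annexin of epithelial membranes, went from 13.1 to 13.5 FPKM in sham to 26.2 to 30.4 FPKM after IR in WT, and from 13.3 to 14.5 FPKM to 34.0 to 37.1 FPKM in cKO. Its log2 difference with IR was 1.03 in WT (SE 0.07, limma adjusted p = 8.92e-06) and 1.27 in cKO (SE 0.07, adjusted p = 2.38e-06). Anxa7 (ENSMUSG00000021814, chromosome 14, 20505328 to 20530201, minus strand), synexin, had 22.4 to 25.3 FPKM in sham and 34.9 to 42.5 FPKM after IR in WT, and 24.4 to 25.2 FPKM against 44.4 to 49.9 FPKM in cKO. The log2 difference was 0.67 in WT (SE 0.09, limma adjusted p = 0.000238) and 0.91 in cKO (SE 0.09, adjusted p = 2.11e-05), the smallest called increases among the members.

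Anxa1 (ENSMUSG00000024659, chromosome 19, 20350792 to 20368308, minus strand), whose protein acts on formyl peptide receptors to limit leukocyte recruitment, was the member with the widest spread after injury. It had 3.66, 2.92 and 2.46 FPKM in WT sham and 5.07, 2.56 and 15.2 FPKM in WT IR, so that WT IR 2 lay inside the sham range. In cKO it had 2.63, 2.58 and 3.04 FPKM in sham and 8.28, 6.08 and 10.7 FPKM after IR, with no overlap. The increase was not called in WT (log2 difference 0.82, SE 0.43, limma adjusted p = 0.145) and was called in cKO (1.29, SE 0.43, adjusted p = 0.0262). The difference between these effects was itself not called (0.47, SE 0.60, limma adjusted p = 0.776).

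Without WT IR 2, its lowest WT IR library, Anxa1 was called in WT (log2 difference 1.32, limma adjusted p = 0.0115). The cKO call ended without cKO IR 1 (limma adjusted p = 0.0608), cKO IR 3 (0.0828) or cKO sham 1, 2 or 3 (0.0648, 0.0663 and 0.0515), and with no filter on low values (0.0631). Anxa1 was highest in WT IR 3 and cKO IR 3. In those libraries the summed FPKM of 8 stroma markers was 206 and 266, against 59.7 to 94.1 in the other 4 injured libraries and 48.3 to 85.3 in sham. The sum of 11 neutrophil markers was 52.5 and 26.7 FPKM there, against 10.9 to 19.9 in the other 4 injured libraries and 1.81 to 3.30 in sham. The monocyte and macrophage markers (11 genes) summed to 106 and 93.6 FPKM there and to 37.7 to 84.6 FPKM in the other 4. Among the neutrophil markers Elane was at 0 in each of the 4 groups. The 6 endothelium markers summed to 68.5 and 80.4 FPKM in those libraries, against 19.4 to 39.7 FPKM in the other 4 injured libraries and 46.5 to 64.7 FPKM in sham. The stroma markers did not all move alike with IR. Dcn was called lower in WT and in cKO (log2 differences −1.20 and −2.04, limma adjusted p = 0.0202 and 0.000866). Acta2 was called higher in both (1.18 and 1.56, limma adjusted p = 0.0226 and 0.00447). The part of these cell types in the Anxa1 values was not tested.

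Over the members, IR called 8 of 9 tested genes higher in WT and 9 of 9 in cKO, and none lower. Of all tested genes, 42.2% were called in WT and 22.6% were called higher, and in cKO 50.8% were called and 27.8% were called higher, while 19.5% in WT and 23.1% in cKO were called lower. Sham and injured libraries did not overlap in 8 of 9 members in WT, against 28% of all tested genes that were higher without overlap, and in 9 of 9 in cKO, against 32.6%. The members called and at least 2-fold higher were 7 of 9 in WT, against 3.74% of all tested genes, and 8 of 9 in cKO, against 5.73%. The median log2 difference of the 9 tested members was 2.0 in WT and 2.36 in cKO, against 0.01 and 0.02 over all tested genes. The members and the gene lists were chosen with earlier results of these data known. These counts and shares are thus descriptions and no independent test. The 10 members together took 0.0404% to 0.0426% of reads in WT sham and 0.118% to 0.190% in WT IR, and 0.0416% to 0.0468% in cKO sham and 0.190% to 0.204% in cKO IR.

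Markers of injured tubules also rose with IR. The 10 markers summed to 435 to 471 FPKM in sham and 6555 to 11413 FPKM after IR in WT, and to 783 to 872 FPKM and 13353 to 14853 FPKM in cKO. Called higher were 10 of 10 in WT, against 22.6% of all tested genes, and 9 of 10 in cKO, against 27.8%. In sham the sums, which weigh abundant genes most, were higher in cKO than in WT without overlap. There 1 of the 10 markers, Spp1, was called higher and 0 of 9 members were called, against 1.1% of all tested genes. Spp1 had a log2 difference of 1.07 in sham (limma adjusted p = 0.0217). The differences of the 10 markers ran from −0.27 (Cdkn1a) to that value, with a median of 0.09. The 10 proximal tubule markers summed to 23817 to 25946 FPKM in WT sham and 6842 to 16036 in WT IR, and to 18162 to 25341 in cKO sham and 9034 to 11834 in cKO IR. Gene by gene, limma called 8 of these 10 lower with IR in WT, against 19.5% of all tested genes, and 9 in cKO, against 23.1%. The median of their changes with IR on the log2 scale was −0.95 for WT and −1.61 for cKO. For cKO IR against WT IR that median was −0.53, and 0 of the 10 were called. In that comparison Kap (0.19) and Ggt1 (0.04) lay above 0. The members' changes were not tested within a cell type.

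**Figure D2:**
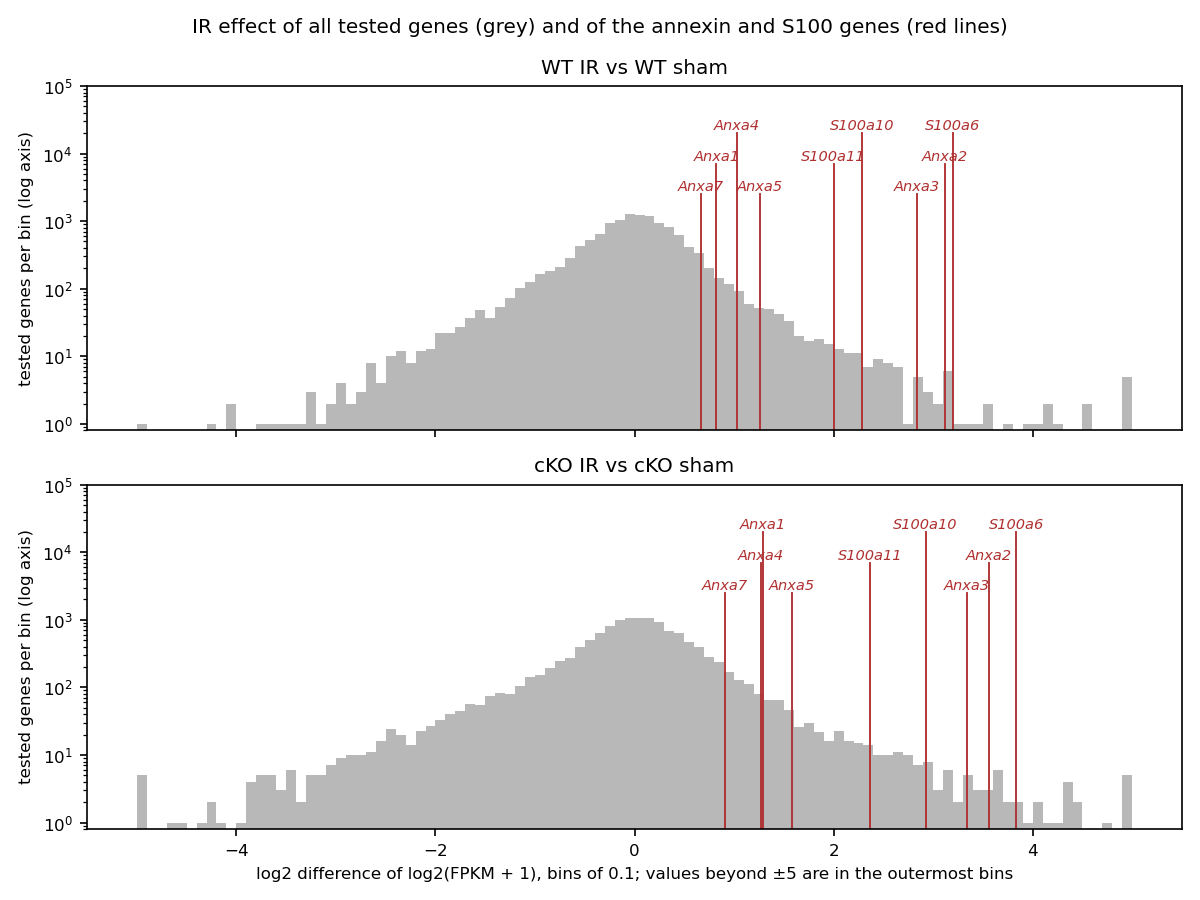
Log2 difference with IR (x axis, difference of log2(FPKM + 1), bins of 0.1) of all 12868 tested genes as grey bars (y axis, number of genes, log axis) and of the 9 tested members as red lines, WT above and cKO below. All 9 lines lie to the right of 0, from 0.67 to 3.20 in WT and from 0.91 to 3.83 in cKO.

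The order of the members by FPKM, which is per length, changed with injury. In both sham groups S100a11 was followed by Anxa5, S100a10, Anxa7, Anxa4, Anxa2, Anxa3, Anxa1, S100a6 and S100a4. After IR, in both genotypes, the order was S100a11, S100a10, Anxa5, Anxa2, S100a6, Anxa7, Anxa3, Anxa4, Anxa1 and S100a4. In cKO IR the libraries of S100a6, Anxa7, Anxa3 and Anxa4 overlapped from each to the next, at means of 48.8, 47.6, 47.5 and 35.2 FPKM, and no other neighbours did. In WT IR the overlaps ran from Anxa5 through Anxa2, S100a6, Anxa7 and Anxa3 to Anxa4, at means of 106 to 28.2 FPKM. In WT sham Anxa5 overlapped S100a10, and Anxa3, Anxa1 and S100a6 overlapped from each to the next, while in cKO sham only Anxa1 and S100a6 did.

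The balance of the partners S100a10 and Anxa2 also differed between sham and injured libraries. The ratio of S100a10 to Anxa2 FPKM was 3.55, 7.11 and 4.43 in WT sham and 2.58, 3.12 and 1.90 in WT IR. In the cKO it was 4.33, 3.37 and 4.44 in sham and 3.14, 2.10 and 2.02 after IR. In both genotypes every sham ratio was above every injured ratio, with means of 5.03 ± 1.85 against 2.53 ± 0.609 in WT and 4.05 ± 0.590 against 2.42 ± 0.623 in cKO (SD, n = 3). The ratio of S100a6 to Anxa2 lay between 0.281 and 0.615 over the 12 libraries, and sham and injured ratios overlapped in WT and in cKO. The ratio of S100a11 to Anxa1 went the other way: it was 37.1 to 46.2 in cKO sham and 54.3 to 91.4 in cKO IR, without overlap. In WT it was 33.1 to 40.5 in sham and 89.8, 152 and 29.9 in the 3 injured libraries, which overlapped.

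**Figure D3:**
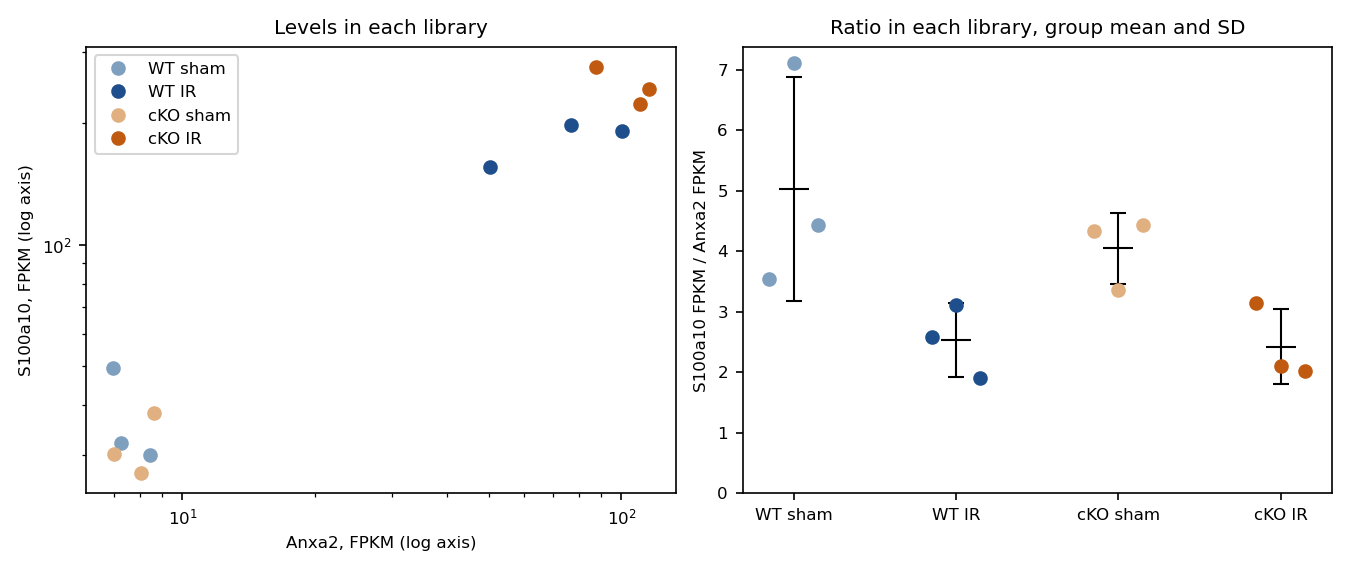
Left, FPKM of S100a10 (y, log axis) against FPKM of Anxa2 (x, log axis) in the 12 libraries. Right, the S100a10 to Anxa2 ratio per library (linear axis from 0) with group mean and SD, where sham ratios of 3.37 to 7.11 lie above injured ratios of 1.90 to 3.14.

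The genes most like Anxa2 were ranked by the root mean square difference of log2(FPKM + 1), centred on each gene's mean over the 12 libraries, among 12867 other tested genes. The nearest were Hspb1 (0.17), a small heat shock protein gene, Plaur (0.20), the urokinase receptor gene, and Slc25a24 (0.21), a mitochondrial ATP carrier gene. Members S100a6 (0.24) and Anxa3 (0.24) were ranked 4 and 5. S100a10 came at rank 41, S100a11 at 71, Anxa5 at 228, Anxa4 at 389, Anxa1 at 519 and Anxa7 at 859. Hspb1 had mean FPKM of 5.65 in sham and 58.1 after IR in WT, and of 4.83 and 73.9 in cKO.

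Without injury no member was called between cKO and WT. The log2 differences of cKO sham against WT sham lay between −0.20 (S100a10) and 0.08 (Anxa3), and 0 of 9 were called by limma, against 1.1% of all tested genes. At an unadjusted p under 0.05 the count was also 0 of 9, against 11.4% of all tested genes. The intervals set how large a difference these libraries leave room for: the 95% interval was −0.08 to 0.23 for Anxa4, −0.41 to 0.52 for Anxa2 and −1.03 to 0.85 for Anxa1.

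After injury the members had higher means in cKO than in WT, but no difference was called. The log2 difference of cKO IR against WT IR lay between 0.31 (Anxa4 and Anxa7) and 0.58 (Anxa3), with a median of 0.40 against 0.03 over all tested genes. It was above 0 in 9 of 9 members and in 56.5% of all tested genes. limma called 0 of 9, as it did 0% of all tested genes. At an unadjusted p under 0.05, 7 of 9 members passed, all but Anxa1 and S100a6, against 15% of all tested genes. That count was 2 of 9 without WT IR 2, against 12% of all tested genes, and 8 of 9 without WT IR 3, against 18.8%. It was 4 of 9 without cKO IR 2, against 13.7%. The smallest limma adjusted p was 0.15, for Anxa4 (log2 difference 0.31, SE 0.07, 95% interval 0.15 to 0.47).

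In 5 members, Anxa4, Anxa5, Anxa7, S100a10 and S100a11, every cKO IR library was above every WT IR library, as in 10.2% of all tested genes. For each of these 5 the two-sided exact permutation test gave p = 0.1, the smallest that 3 against 3 libraries can give. Without WT IR 2, the lowest WT IR library for each of the 9 members, the differences had to be lower. They were 0.26 for Anxa4, 0.22 for Anxa5, 0.25 for Anxa7, 0.34 for S100a10, 0.33 for S100a11, 0.24 for Anxa2, 0.23 for Anxa3, 0.07 for S100a6 and −0.11 for Anxa1. Injured tubule markers summed to 13353 to 14853 FPKM in cKO IR and to 6555 to 11413 FPKM in WT IR, without overlap of these sums. limma called 0 of these 10 markers between the injured groups, as it did 0% of all tested genes. The log2 differences of the markers ran from 0.05 (Vcam1) to 1.05 (Lcn2), with a median of 0.52. The part of these markers in the members' differences was not tested.

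The effect of IR itself was compared between genotypes by the interaction. All 9 estimates were above 0, as were 54.8% over all tested genes, and ran from 0.24 (Anxa4 and Anxa7) to 0.64 (S100a6 and S100a10). limma called 0 of 9, against 0.878% of all tested genes, and at an unadjusted p under 0.05 the count was 2 of 9 (Anxa4 and S100a10), against 14.6%. Leaving out WT IR 2, the lowest WT IR library for all 9, had to lower every estimate. The estimates were then 0.15 for Anxa3, 0.18 for Anxa2 and Anxa7, 0.19 for Anxa4, 0.21 for Anxa5, 0.25 for S100a6, 0.29 for S100a11 and 0.53 for S100a10, and Anxa1 turned to −0.02. The unadjusted count was then 0 of 9, against 15.9% of all tested genes. It was also 0 of 9 without WT sham 2 (against 11.6%) or cKO sham 2 (11.9%). It was 1 of 9 without WT sham 1, WT sham 3, cKO sham 1 or cKO IR 2, against 11.9% to 14%. It was 3 of 9 without cKO sham 3 (13.3%), 4 of 9 without WT IR 1 (14.8%) and 5 of 9 without WT IR 3 (16.1%). The 2 IR effects and the genotype comparisons share their libraries and are not independent of each other.

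**Figure D4:**
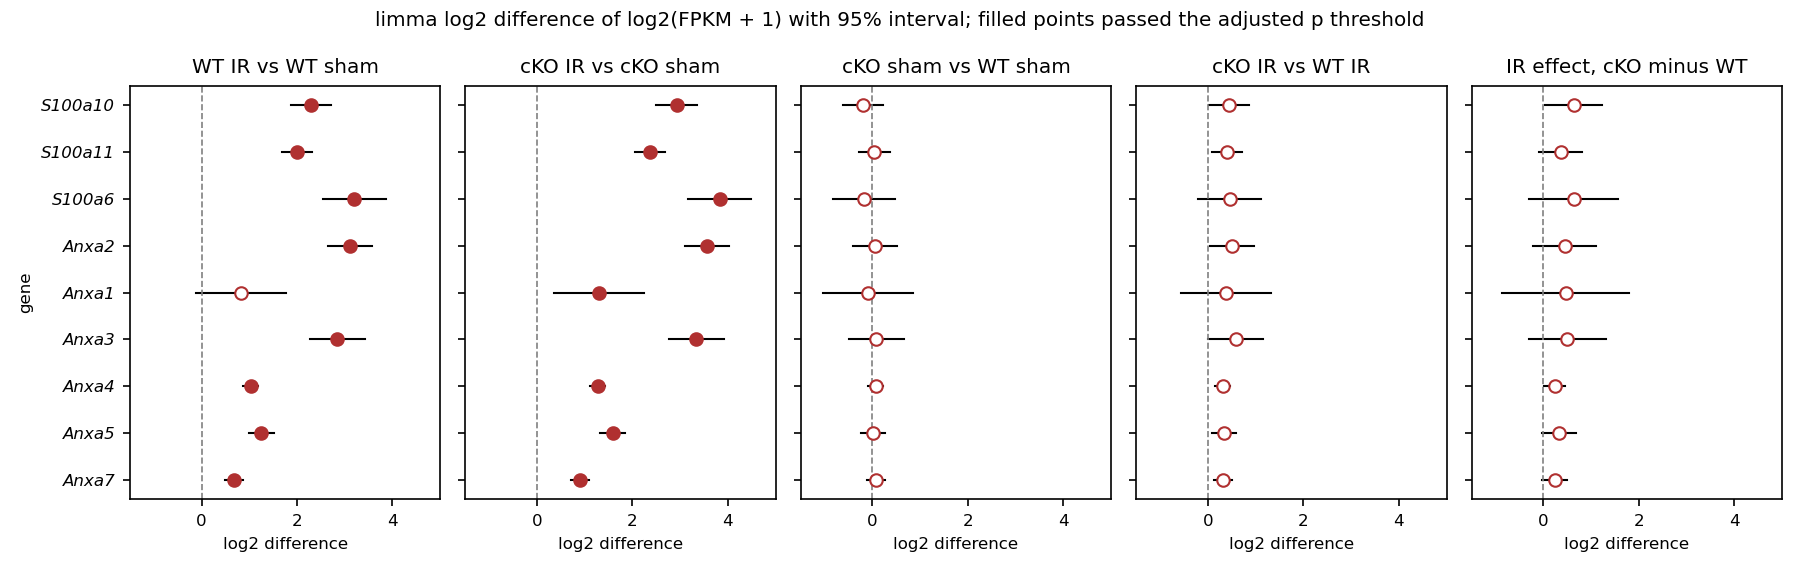
limma log2 difference (x axis) with its 95% interval for the 9 tested members (y axis) in the 5 comparisons, 1 panel each. Filled points passed the adjusted p threshold: 8 in WT IR against WT sham, 9 in cKO IR against cKO sham and 0 in the 3 genotype panels.

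Among the other annexins, 4 of 6 were tested. Anxa6, an annexin of membranes and endosomes, was called higher with IR in WT (log2 difference 0.73, limma adjusted p = 0.00107) and in cKO (0.87, adjusted p = 0.000215). Anxa9 was called higher in cKO (0.53, limma adjusted p = 0.00795) and not in WT (0.04, adjusted p = 0.846), and the difference between these effects was not called (0.49, limma adjusted p = 0.273). Anxa11 was not called, at −0.09 in WT, which turned to 0.062 with plain library totals and 0.064 with voom, and at −0.16 in cKO, which was called at −0.22 with median-of-ratios scaling (limma adjusted p = 0.0138).

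Anxa13, an annexin of intestinal and renal epithelium, was the one tested family gene called lower with IR at the settings used here. WT libraries had 7.35, 5.91 and 8.42 FPKM without injury and 1.59, 0.742 and 0.933 FPKM with it, and cKO libraries 2.22, 2.51 and 2.60 FPKM without and 1.10, 1.41 and 0.803 FPKM with it. It fell with IR in WT (log2 difference −1.99, SE 0.17, limma adjusted p = 2.43e-05) and in cKO (−0.72, SE 0.17, adjusted p = 0.00445). It was also called lower in cKO sham than in WT sham (−1.25, SE 0.17, limma adjusted p = 0.00519), with no overlap between the groups, while cKO IR and WT IR overlapped (0.02, adjusted p = 0.967).

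Of the other S100 genes, 6 of 13 were tested. S100a8 and S100a9, the subunits of calprotectin in neutrophils and monocytes, were called higher in WT (log2 differences 2.04 and 2.69) and in cKO (2.16 and 2.21), and both are also in the neutrophil marker list. Their sham means were low, at 0.596 FPKM in WT and 0.493 FPKM in cKO for S100a8 and at 0.936 and 1.55 FPKM for S100a9. The 1 FPKM filter is a mean over all 12 libraries, and S100a8 reached it only through the injured libraries. For S100a9 the sham mean was under 1 FPKM in WT only. S100a16 rose by 0.97 in WT and 1.14 in cKO on the log2 scale. S100a13 was called at 0.43 in WT (limma adjusted p = 0.0455) and 0.52 in cKO, and S100a1 in cKO only at 0.30 (limma adjusted p = 0.0324) against 0.12 in WT (adjusted p = 0.398), where plain library totals (0.27) and voom (0.27) did call it. The interaction was not called for S100a1. S100g, which encodes the calcium carrier calbindin-D9k of the distal nephron, was not called (−0.50 in WT and −0.40 in cKO), although without cKO IR 1 it was called lower in cKO (−0.63, limma adjusted p = 0.0337).

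These last calls were fragile. Leaving out 1 library ended the call of S100a13 in WT in 8 of 12 cases, all but WT IR 2, WT sham 1, cKO IR 2 and cKO sham 1, with limma adjusted p of 0.0513 to 0.169. In cKO it ended without cKO IR 1, cKO IR 3 or cKO sham 1 (limma adjusted p 0.0605, 0.0516 and 0.0681). The call of S100a1 in cKO ended without cKO IR 1, cKO IR 2 or any 1 of the 3 cKO sham libraries (limma adjusted p 0.0598 to 0.115). It also ended with the replicate block (limma adjusted p = 0.0516), median-of-ratios scaling (0.0549), no filter on low values (0.0645) or only the groups compared (0.0749). The call of S100a13 in WT ended under the same settings (limma adjusted p 0.0661, 0.0718, 0.0935 and 0.0851).

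**Figure D5:**
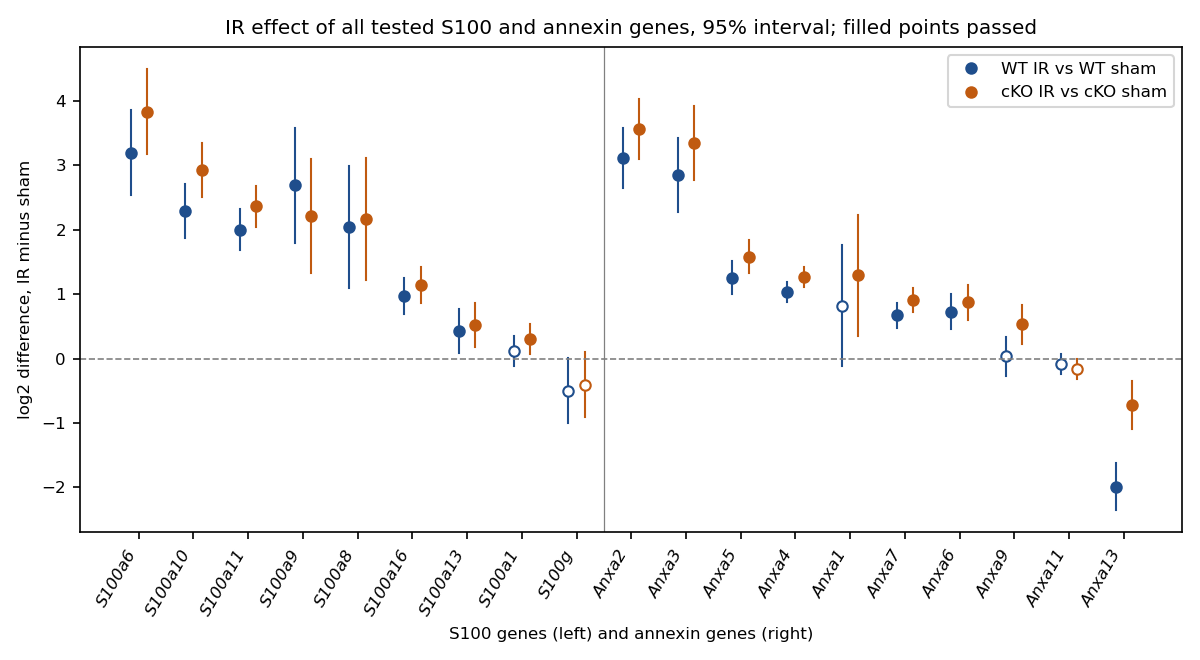
limma log2 difference with IR (y axis, IR minus sham) and 95% interval for the 9 tested S100 genes and the 10 tested annexins, WT in blue and cKO in orange, with filled points passing the adjusted p threshold. Anxa13 at −1.99 and −0.72 is the only gene with filled points below 0, and S100a6 and Anxa2 are the highest of each family.

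Genes of plasma membrane repair, the process annexins are best known for, were counted from a list of 20, of which 18 were tested. In WT, 11 of 18 were called higher and 0 lower with IR, with a median log2 difference of 0.46, against 22.6% called higher and a median of 0.01 over all tested genes. In cKO, 12 of 18 were called higher and 0 lower, with a median of 0.62, against 27.8% and 0.02. Myof, which encodes the ferlin myoferlin that fuses membranes, had the largest increase, from 2.15 ± 0.235 to 16.5 ± 5.41 FPKM in WT and from 3.41 ± 0.0631 to 20.5 ± 2.91 FPKM in cKO (SD, n = 3; log2 differences 2.42 and 2.28, limma adjusted p = 2.40e-05 and 1.57e-05).

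Of the calpain subunits, Capn2, the catalytic subunit of m-calpain, rose by 1.26 in WT and 1.51 in cKO on the log2 scale, and Capns1, the small regulatory subunit, by 0.72 and 1.04. Capn1, the catalytic subunit of µ-calpain, was called at 0.44 in WT (limma adjusted p = 0.0294, and 0.0586 to 0.105 without any 1 of the 6 WT libraries but WT IR 2) and not in cKO (0.13, adjusted p = 0.492). The WT call of Capn1 also ended with median-of-ratios scaling (limma adjusted p = 0.0507) or no filter on low values (0.0624). The interaction was not called for Capn1 (−0.32, limma adjusted p = 0.516). Pdcd6ip, which encodes the ESCRT adaptor ALIX, rose by 0.73 and 0.91. Dysf, the dysferlin gene, and Ahnak, a scaffold gene whose protein binds S100A10, were also called, at 1.06 and 1.04 in WT and 1.14 and 1.09 in cKO. Between genotypes 0 of the 18 were called in sham, after IR or in the interaction, against 1.1%, 0% and 0.878% of all tested genes. Cav1 had the smallest p of the 18 in sham (log2 difference 0.38, limma adjusted p = 0.163). It also had the smallest in the interaction (−0.47, limma adjusted p = 0.187). Myof was higher in every cKO sham library (3.34 to 3.46 FPKM) than in every WT sham library (1.88 to 2.31 FPKM), with a log2 difference of 0.49 that was not called (limma adjusted p = 0.373). It was called without WT IR 2 (limma adjusted p = 0.0498) and with only those groups in the fit (0.0417). At an unadjusted p under 0.05 limma gave 2 of 18 in sham, 7 of 18 after IR and 2 of 18 in the interaction, against 11.4%, 15% and 14.6% of all tested genes.

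Of 19 receptors and binding partners of annexins and S100 proteins, 11 were tested. With IR 5 were called higher and 1 lower in WT, and 7 higher and 1 lower in cKO, where 42.2% and 50.8% of all tested genes were called in either direction. The WT count of 6 fell to 3 without WT IR 1 or without WT sham 1, and it ranged from 3 to 7 over all libraries left out in turn. Plaur, the urokinase receptor gene and the gene ranked 2 in likeness to Anxa2, went from 1.14 ± 0.0984 to 13.2 ± 4.52 FPKM in WT and from 1.07 ± 0.169 to 22.9 ± 5.28 FPKM in cKO (SD, n = 3; log2 differences 2.67 and 3.5, limma adjusted p = 2.71e-05 and 3.29e-06). Its cKO IR libraries, at 17.6 to 28.1 FPKM, were above its WT IR libraries, at 8.00 to 16.03 FPKM, but the difference was not called (0.78, limma adjusted p = 0.185).

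Plau, the urokinase gene, was called in WT at 0.52 (limma adjusted p = 0.049, and 0.0593 to 0.136 without any 1 of the 6 WT libraries or without cKO sham 2) and in cKO at 1.43 (adjusted p = 0.000166), and the difference between those effects was not called (0.91, limma adjusted p = 0.149). The WT call of Plau also ended with median-of-ratios scaling (limma adjusted p = 0.0613) or no filter on low values (0.111). Myh9, a non-muscle myosin heavy chain bound by S100A4, rose by 1.23 in WT and 1.41 in cKO on the log2 scale. Cacybp, the calcyclin-binding protein gene and so a partner of S100A6, rose by 0.92 and 0.80. Trpv5, a calcium channel gene whose protein binds S100A10, was called at 0.67 in WT and 0.55 in cKO. The call in WT ended without WT IR 1 (limma adjusted p = 0.0607), WT IR 3 (0.0553) or WT sham 1 (0.0545), and with only the groups compared (0.0509). The call in cKO ended without any 1 of the 6 cKO libraries but cKO sham 1 (limma adjusted p 0.0501 to 0.110), and with no filter on low values (0.0662). Kdr, an endothelial receptor gene, was the one called lower, at −1.02 and −1.23. Its call in WT ended without WT IR 1 (limma adjusted p = 0.0619), WT IR 2 (0.0948, at −0.62), WT sham 1 (0.0978) or WT sham 3 (0.0971), and with plain library totals (0.0715) or voom (0.0581). That call also ended with no filter on low values (limma adjusted p = 0.0776) or only the groups compared (0.0713). In the 3 genotype comparisons limma called 0 of the 11. Over all tested genes it called 1.1% in sham, 0% after IR and 0.878% in the interaction.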

How the data were processed

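RNA of 12 kidney libraries was given by the authors as 1 table of FPKM with gene model lengths. Per the submitters' processing notes, HISAT2 2.2.1 was used and the builds mm8 and mm9 are named. No source used here gives the counting program, its use of strand or the annotation. Of 52073 gene identifiers shared with GENCODE mouse release M21, 1472 have the same start and end, and of the 10 members 0 do. FPKM times length gave whole reads to within 5.63e-08, and their sum per library is the depth. The library size implied by the FPKM was 0.933 to 0.977 of that sum in WT sham and 1.01 to 1.13 in WT IR. In cKO it was 0.982 to 0.990 in sham and 1.00 to 1.07 after IR. The deposited FPKM thus hold a further scaling that differs between groups. Samples were grouped by title. The members, the gene lists and the naming rule were chosen with earlier results of these data known.

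Group means were fitted by a linear model to log2(FPKM + 1), the deposited FPKM with a pseudocount of 1, for genes averaging 1 FPKM or more, in limma 3.58.1 (R 4.3.3) with a variance trend. It has 8 residual and 2.59 prior degrees of freedom, two-sided p-values and Benjamini-Hochberg adjustment over 12868 genes at 0.05. The script was tested on simulated data. Alternatives were pseudocount 0.1, a filter at 5 FPKM and none, scaling by plain library totals or median of ratios, voom on the recovered reads, no variance trend, only the groups compared, a replicate block and leaving out each library. Named are the 10 members, the tested genes of their families, up to 4 genes of each list with the smallest p in a comparison, and the 5 genes nearest to Anxa2. Chmp4b, Pdcd6, Vps4b, Plat, Sugt1 and Dlc1 came under this rule only in genotype comparisons. None of them was called there, and their values are not given. Dysf, Ahnak, Capn1, Kdr and the values of Plau in WT and Trpv5 in cKO were added after they were seen. Reads from a gene and an antisense neighbour cannot be told apart without strand: genes overlapping Anxa2 and Anxa1 on the opposite strand had at most 17 and 2 reads in a library. Promoter sequences are from RefSeq, build GRCm38.p6.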

Additional observations from a re-analysis of the deposited data

Results flagged for a closer look

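The effect of IR on Anxa13, an annexin outside the 10 members, differed between the genotypes. The interaction was 1.27 on the log2 scale (SE 0.24, limma adjusted p = 0.0367), from a difference of −1.99 in WT and of −0.72 in cKO. The call ended under 4 other settings, with no filter on low values (limma adjusted p = 0.0855), with pseudocount 0.1 (0.0836), with the replicate block (0.0714) and with voom on recovered reads (0.118). It also ended in 10 of the 12 fits that left out 1 library, all but those without WT IR 1 or cKO IR 3 (limma adjusted p of 0.0529 to 0.0988 in the 10). Its mean went from 7.22 ± 1.26 to 1.09 ± 0.443 FPKM with IR in WT and from 2.44 ± 0.201 to 1.10 ± 0.306 FPKM in cKO (SD, n = 3).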

How the results depend on the processing

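Under the other settings the members called with IR stayed at 8 in WT, and at 9 in cKO apart from 8 with no filter on low values. Leaving out 1 library gave 8 to 9 in both genotypes. Anxa1 made the difference each time, and no member was called between genotypes. The genes called in cKO IR against WT IR numbered 1 at a filter of 5 FPKM, with median of ratios, plain library totals, pseudocount 0.1 or voom, 9 with no filter, and 0 to 12 without 1 library. In cKO sham against WT sham 142 genes were called, 251 with only those groups and 55 to 208 without 1 library. The interaction gave 113, 73 with the replicate block and 41 to 150 without 1 library. Plain library totals raised the median of all genes by 0.13 in WT IR against WT sham and voom by 0.15. The called genes were then 4168 higher and 1844 lower with plain totals, in place of 2910 and 2514. Anxa11 in WT then reversed to 0.062 and 0.064, and Anxa13 in cKO IR against WT IR to −0.0079 and −0.0071.

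Leaving out 1 library reversed small differences that no fit called. In cKO sham against WT sham the ranges were −0.19 to 0.023 for Anxa1, −0.0040 to 0.13 for Anxa2, −0.070 to 0.053 for Anxa5, −0.33 to 0.023 for S100a10 and −0.14 to 0.14 for S100a11. In cKO IR against WT IR they were −0.11 to 0.98 for Anxa1 and −0.10 to 0.19 for Anxa13. For the interaction Anxa1 ranged from −0.023 to 1.07, Anxa9 in WT from −0.065 to 0.098, and Capn1 in cKO from −0.021 to 0.28. The cause of these shifts was not tested.

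The replicate numbers were not shown to pair the libraries: deviations of same-numbered libraries correlated at −0.12 to 0.40, above 0.1 in 4 of 12 pairs. With the replicate block, the members called stayed at 8 in WT and 9 in cKO, and among the named genes it changed only the calls of Anxa13 (interaction), S100a13 (WT) and S100a1 (cKO). Depth limits S100a4, with 22 reads in all.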
